A study of Thermothelomyces thermophilus ATCC 42464 with 4 samples.

Results

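The genes described here are 3 of the 8716 genes measured in *Myceliophthora thermophila*, a thermophilic fungus that grows on plant cell wall material. They are *Mycth_108924*, *Mycth_2059428* and *Mycth_107763*, all described as transporters of the major facilitator superfamily (MFS). They were chosen by their FPKM in the comparison reported here, as 2 transporter genes that stood higher and 1 that stood lower in the libraries labelled ΔMtTrh-1. Their levels and fold changes are therefore a description and carry no test. FPKM (fragments per kilobase of gene and per set number of mapped fragments) correct for gene length, so levels of different genes can be set side by side.

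RNA was taken from mycelia of 2 strains, both of the ATCC 42464 background, with 2 libraries each. MtWT is the wild type, and the other strain is labelled ΔMtTrh-1, a deletion of the gene that the labels call MtTrh-1. Both strains grew for 16 h at 45°C on 2% glucose and then for 4 h on 2% Avicel, a crystalline cellulose. The study's methods state 3 independent biological replicates, and whether the 2 libraries of each strain used here are among those is not known. Nothing in the labels tells whether they were made from different cultures or transformants. P-values therefore cover only the spread among these 4 libraries, possibly a technical one. Sequencing depth is unknown from FPKM.

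The gene taken as deleted was examined first. MtTrh-1 was taken to be the MtTRC-1 of the study, *Mycth_90344*, from the title of the data set, which was not tested. *Mycth_90344* had 215.45 and 223.41 FPKM in the libraries labelled ΔMtTrh-1 against 13.29 and 14.47 FPKM in MtWT, so it was higher where the label names a deletion. "The libraries labelled ΔMtTrh-1" is therefore written throughout, and directions follow the labels as given. Total FPKM lay between 725984 and 741923 in the 4 libraries. Over the 7525 genes whose mean reached 1 FPKM, log2(FPKM + 1) correlated between the libraries of a strain with a Pearson r of 0.997. Across the strains r was 0.936 to 0.937, and genes are not independent replicates.

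MFS proteins are membrane carriers that move small solutes, among them sugars, drugs and metabolites, across a membrane, either down a gradient or together with protons. In filamentous fungi, carriers of the sugar transporter family bring glucose, xylose and the short cellulose fragments called cellodextrins into the cell. In *Neurospora crassa*, uptake of cellodextrins by such carriers feeds intracellular beta-glucosidases and helps cellulose to induce cellulase genes. Which solute the 3 proteins of *M. thermophila* carry is not given by their descriptions.

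*Mycth_108924*, described by a conserved site of sugar transporters, was the most abundant of the 3 genes in the libraries labelled ΔMtTrh-1. Its levels were 100.59 and 103.52 FPKM there and 6.78 and 6.33 FPKM in MtWT. Both libraries labelled ΔMtTrh-1 lay far above both MtWT libraries. The means were 102 ± 2 FPKM (SD, n = 2) and 6.56 ± 0.32 FPKM (SD, n = 2), a ratio of 15.6 that ran from 14.8 to 16.4 over the pairs of libraries. On the log2(FPKM + 1) scale, which understates the change of low genes, the fold change was 3.77, whereas the libraries of a strain differed by 0.04 and 0.09. In MtWT its FPKM exceeded that of 33.8% and 32.5% of all genes, and in the libraries labelled ΔMtTrh-1 that of 88.0% and 88.3%.

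*Mycth_2059428*, described only as a member of the MFS, was close to the lower end of the measured range in MtWT. MtWT had 1.11 and 1.25 FPKM, and the libraries labelled ΔMtTrh-1 had 29.17 and 33.15 FPKM. The strains did not overlap, nor did they for 25 of the 28 other sugar transporter and MFS genes tested. With 2 libraries per strain, a gene with no real difference escapes overlap with a probability of 0.33. Differences were also common among all 7525 genes tested, as counted below without a fold threshold. The share of those genes without overlap was not counted, so the 25 show nothing particular to transporters. The means of *Mycth_2059428* were 1.18 ± 0.10 and 31.2 ± 2.8 FPKM (SD, n = 2 each). The ratio for this gene was 26.4 and ran from 23.3 to 29.9 over the pairs of libraries. Its log2 fold change of FPKM + 1 was 3.88. By ratio of FPKM it thus changed more than *Mycth_108924*, whereas on the log2(FPKM + 1) scale the fold changes of 3.88 and 3.77 were close.

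*Mycth_107763*, described as a general substrate transporter of the MFS, went the other way. MtWT had 28.39 and 26.50 FPKM, whereas 0.08 and 0.21 FPKM were left in the libraries labelled ΔMtTrh-1. Both libraries labelled ΔMtTrh-1 were near 0, and neither was at 0. The means were 27.4 ± 1.3 and 0.145 ± 0.092 FPKM (SD, n = 2 each), which is 189-fold lower. This ratio ran from 126 to 355 over the pairs of libraries, a wide range that comes from the 2 low values. The log2 fold change of FPKM + 1 was −4.64, the 10th lowest of the 7525 genes, and −6.86 with 0.1 FPKM added in place of 1.

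**Figure D1:**
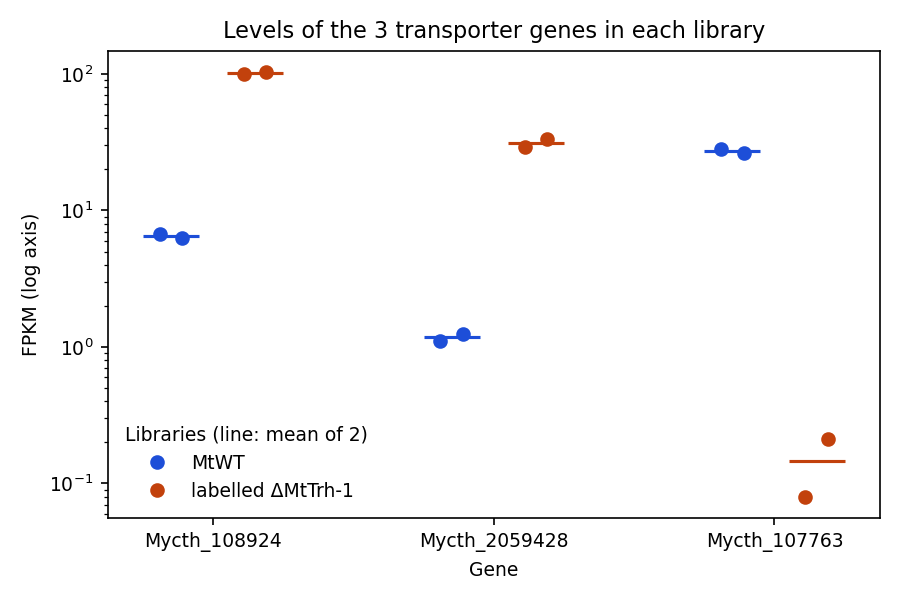
FPKM of the 3 transporter genes in each library, on a log axis. Blue points are the 2 MtWT libraries, orange points the 2 libraries labelled ΔMtTrh-1, and lines the mean of 2. *Mycth_108924* and *Mycth_2059428* stand higher in the libraries labelled ΔMtTrh-1 (means of 102 and 31.2 FPKM) and *Mycth_107763* stands lower (0.145 against 27.4 FPKM in MtWT).

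The order of the 3 genes by FPKM differed between the strains. In both MtWT libraries *Mycth_107763* was the highest of the 3, *Mycth_108924* came next and *Mycth_2059428* was the lowest. The FPKM of *Mycth_107763* was 4.19 times that of *Mycth_108924* in each MtWT library, and 25.6 and 21.2 times that of *Mycth_2059428*. In both libraries labelled ΔMtTrh-1 *Mycth_108924* was the highest and *Mycth_107763* the lowest. The 2 genes that stood higher kept their order, with *Mycth_108924* at 6.11 and 5.06 times the FPKM of *Mycth_2059428* in MtWT and at 3.45 and 3.12 times in the libraries labelled ΔMtTrh-1. Together the 3 genes had 36.3 and 34.1 FPKM in MtWT and 130 and 137 FPKM in the libraries labelled ΔMtTrh-1.

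To place the 3 genes among related carriers, all genes described as sugar transporters or MFS proteins were collected. Descriptions were at hand for 1490 genes of the file, and 47 of these belonged to the list. Of the 47, 31 reached a mean of 1 FPKM and were tested, and the other 16 were low, with no library above 1.34 FPKM. *Mycth_108924* took place 12 by FPKM among the 47 in both MtWT libraries and place 2 in both libraries labelled ΔMtTrh-1. *Mycth_2059428* moved from places 31 and 29 to places 6 and 5, and *Mycth_107763* from places 4 and 6 to places 43 and 40. The 3 genes took 2.21% and 2.13% of the FPKM of the 47 genes in MtWT, and 16.3% and 16.6% in the libraries labelled ΔMtTrh-1.

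*Mycth_114107*, described by the conserved site of sugar transporters, held most of the FPKM of the list. In MtWT it reached 1314.87 and 1277.10 FPKM, and in the libraries labelled ΔMtTrh-1 414.90 and 432.12 FPKM. It fell by 1.61 ± 0.05 (standard error) on the log2(FPKM + 1) scale (limma, adjusted p = 6.0e-09). Its share of the list was 80.2% and 79.9% in MtWT and 52.1% and 52.5% in the libraries labelled ΔMtTrh-1. The summed FPKM of the 47 genes were 1639 and 1598 in MtWT and 796 and 824 in the libraries labelled ΔMtTrh-1. The summed level was thus lower in the latter, although the summed level of the 3 genes was higher. With most of each sum held by *Mycth_114107*, this fall does not describe the other listed genes.

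**Figure D2:**
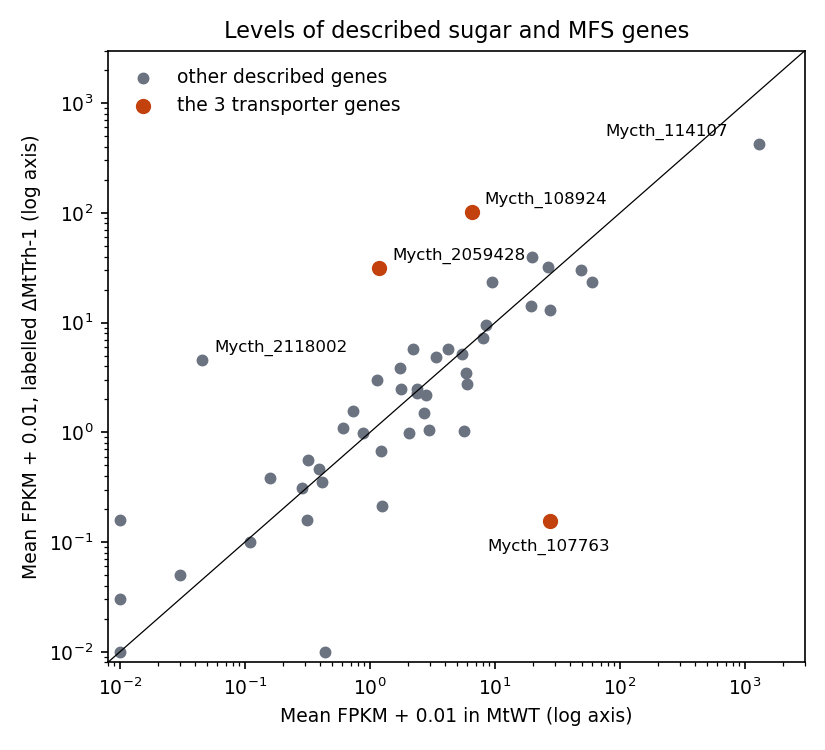
Mean FPKM of each of the 47 described sugar transporter and MFS genes in MtWT (horizontal) and in the libraries labelled ΔMtTrh-1 (vertical), on log axes with 0.01 FPKM added, with the line of equal levels. *Mycth_108924* and *Mycth_2059428* lie above the line, *Mycth_107763* lies below it, and *Mycth_114107* is the most abundant gene in both strains.

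Calls required an adjusted p under 0.05 (limma, Benjamini-Hochberg over 7525 genes) together with a log2 fold change above 1 or below −1. By this rule 10.3% of all genes tested were called, 5.30% higher and 4.96% lower in the libraries labelled ΔMtTrh-1. Without the 3 genes, 28 listed genes were tested, of which 3 rose, 4 fell and 21 did not pass both thresholds, so that 25.0% were called. Only genes with a description could enter the list, and of the 1118 described genes tested 12.9% were called. The median log2 fold change of the 28 was −0.05, against 0.03 over all genes tested. With the 3 genes counted in, which were chosen on this contrast, 5 of 31 were higher and 5 lower. With 1 FPKM added, the log2 fold changes of the other 28 ran from −1.72 to 2.41. The gene at 2.41, *Mycth_2118002*, is counted among the 3 that rose but passed the filter only through the libraries labelled ΔMtTrh-1, where it was high, and with 0.1 FPKM added it had 5.15, above the 3.94 of *Mycth_108924* and the 4.61 of *Mycth_2059428*. The remaining 27 ran from −1.72 to 1.21, and from −2.36 to 1.34 with 0.1 FPKM added.

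**Figure D3:**
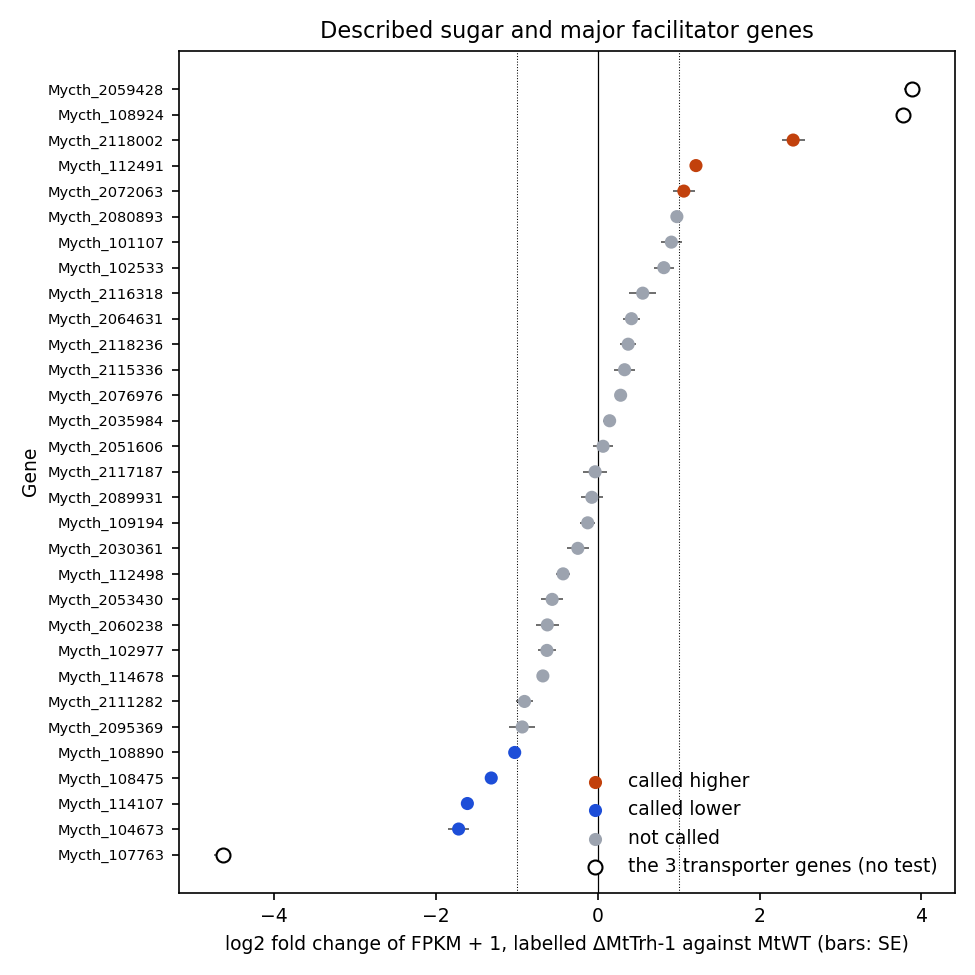
Log2 fold change of FPKM + 1 in the libraries labelled ΔMtTrh-1 against MtWT for the 31 listed genes tested, with standard errors from limma. Orange and blue points were called higher and lower, grey points were not called, open circles are the 3 transporter genes, which carry no test, and dotted lines mark a log2 fold change of 1 in either direction. The open circles lie at 3.88, 3.77 and −4.64, and the other genes from −1.72 to 2.41 with 1 FPKM added, whereas with 0.1 FPKM added *Mycth_2118002* had 5.15, above 2 of the 3.

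The listed genes that rose beside *Mycth_108924* and *Mycth_2059428* were low or moderate in level. *Mycth_2118002*, an MFS gene, had 4.31 and 4.73 FPKM in the libraries labelled ΔMtTrh-1 and was listed at 0 and 0.07 FPKM in MtWT. Having passed the filter only through the strain where it is high, it had to differ, so no p is given, and its fitted log2 fold change of 2.41 depends on the added 1 FPKM. *Mycth_112491*, a sugar transporter gene, rose from 9.44 ± 0.13 to 23.3 ± 1.7 FPKM (SD, n = 2 each), or by 1.21 on the log2 scale (limma, adjusted p = 7.0e-07). *Mycth_2072063*, an MFS gene, had 1.06 (limma, adjusted p = 1.0e-04). Its call was lost without replicate 1 labelled ΔMtTrh-1 or without MtWT replicate 1.

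Apart from *Mycth_107763* and the abundant *Mycth_114107*, 3 listed genes fell. The sugar transporter gene *Mycth_104673* had 6.13 and 5.18 FPKM in MtWT against 0.91 and 1.13 FPKM in the libraries labelled ΔMtTrh-1, or −1.72 as log2 fold change (limma, adjusted p = 2.7e-06). *Mycth_108475*, an MFS gene, fell from 60.0 ± 1.2 to 23.5 ± 0.2 FPKM (SD, n = 2 each), a log2 fold change of −1.32. *Mycth_108890*, a sugar transporter gene, had −1.03, and its call was lost without MtWT replicate 2.

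Among the 5 listed genes with the highest mean FPKM, *Mycth_114107*, *Mycth_108924*, *Mycth_108475*, *Mycth_114678* and *Mycth_2080893*, the last 2 did not pass both thresholds. *Mycth_114678* had a log2 fold change of −0.68, and *Mycth_2080893*, at 39.43 and 40.52 FPKM against 20.01 and 19.58 FPKM in MtWT, had 0.98 (limma, adjusted p = 5.4e-07), which missed the fold threshold. Of the genes described as sugar transporters other than *Mycth_108924*, 1 of 10 rose and 3 fell. Of the other MFS genes apart from *Mycth_2059428* and *Mycth_107763*, 2 of 18 rose and 1 fell. Of all genes tested, 5.30% were called higher and 4.96% lower, and of the described genes tested 5.90% and 6.98%. Whether these 2 groups of transporter genes differ from each other or from all genes was not tested. Of the 31 listed genes tested, 4 had a mean under 1 FPKM in 1 strain and passed the filter through the other, *Mycth_107763* and *Mycth_2118002* among them.

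Transporters outside the MFS, such as ABC transporters, amino acid permeases and P-type ATPases, were collected in the same way. Of 23 such described genes, 19 were tested, and 2 rose, 2 fell and 15 did not pass both thresholds. That is 21.1% called, against 10.3% of all genes and 12.9% of the described genes tested. The median log2 fold change of the 19 was 0.45. *Mycth_2093133*, a high-affinity nickel or cobalt transporter gene, had −1.83 and *Mycth_2059686*, an ABC transporter-like gene, −1.30 as log2 fold change. *Mycth_2083946*, a gene of P-type ATPases that pump cations, rose by 1.40, and the amino acid permease gene *Mycth_2090611* by 1.02, a call lost without replicate 1 labelled ΔMtTrh-1 or without MtWT replicate 1. The changes of these 4 genes were all smaller than those of the 3 MFS genes. The latter were chosen on this contrast, so that order is no result.

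The neighbours of the 3 genes in the genome played no part in their choice. In the gene order of the RefSeq assembly ASM22609v1 the 3 genes lie on 3 different chromosomes. The 5 genes on each side of each were examined. Around *Mycth_108924*, 7 of the 10 neighbours were tested and none was called in limma, with log2 fold changes from −0.29 to 0.94. Of these, 5 had an adjusted p under 0.05 and missed only the fold threshold. With no fold threshold, 2570 of all 7525 genes tested were higher and 2356 lower, so such values were common. The highest of the 5 neighbours, *Mycth_2113977*, lies 2 genes away and was called higher with 0.1 or 0.5 FPKM added, without replicate 1 labelled ΔMtTrh-1 or without MtWT replicate 2. *Mycth_108924* itself had 3.77.

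Around *Mycth_2059428*, 8 of 10 neighbours were tested and 1 was called. *Mycth_2301578*, 2 genes away, fell from 51.0 ± 0.2 to 16.2 ± 2.4 FPKM (SD, n = 2 each), or −1.60 as log2 fold change (limma, adjusted p = 2.9e-07), the opposite direction to *Mycth_2059428*. *Mycth_2301577*, 3 genes away, had 2.20 and 2.09 FPKM in MtWT and 0.72 and 0.67 FPKM in the libraries labelled ΔMtTrh-1. Its log2 fold change was −0.89, and it was called lower only with 0.1 or 0.5 FPKM added. Having passed the filter only through MtWT, where it was higher, it had to differ, so these calls carry no weight. The gene next to *Mycth_2059428*, *Mycth_2109027*, is also described as an MFS gene. Both MtWT libraries list it at 0, and the libraries labelled ΔMtTrh-1 at 0.09 and 0.21 FPKM, too low to be tested. Of these neighbouring MFS genes, then, *Mycth_2059428* had a mean of 31.2 FPKM and *Mycth_2109027* was near 0 in the libraries labelled ΔMtTrh-1.

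*Mycth_107763* lies at the end of a stretch of genes that were much lower in the libraries labelled ΔMtTrh-1. Of its 10 neighbours 7 were tested, and 4 fell, *Mycth_2118002* was called higher and 2 were not called. The genes that fell are all on one side. *Mycth_48716*, next to *Mycth_107763*, had 918.35 and 875.71 FPKM in MtWT against 10.21 and 11.66 FPKM in the libraries labelled ΔMtTrh-1, or −6.24 as log2 fold change (limma, adjusted p = 5.2e-12). *Mycth_2303709*, *Mycth_81364* and *Mycth_2303707*, 3 to 5 genes away, had −5.45, −4.92 and −3.72. Between them, *Mycth_50920* had −0.98 and was not called, except without MtWT replicate 2.

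Among the 5 genes on the other side of *Mycth_107763*, only the MFS gene *Mycth_2118002* was called, as higher. It passed the filter only through the libraries labelled ΔMtTrh-1. *Mycth_2118002* lies 2 genes away, and the gene between them has no FPKM under its identifier. The 2 MFS genes therefore lie close together and differed in opposite directions between the strains, with *Mycth_107763* near 0 in the libraries labelled ΔMtTrh-1 and *Mycth_2118002* near 0 in MtWT. *Mycth_2303718*, 3 genes away, had 0.32 as log2 fold change and was not called.

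**Figure D4:**
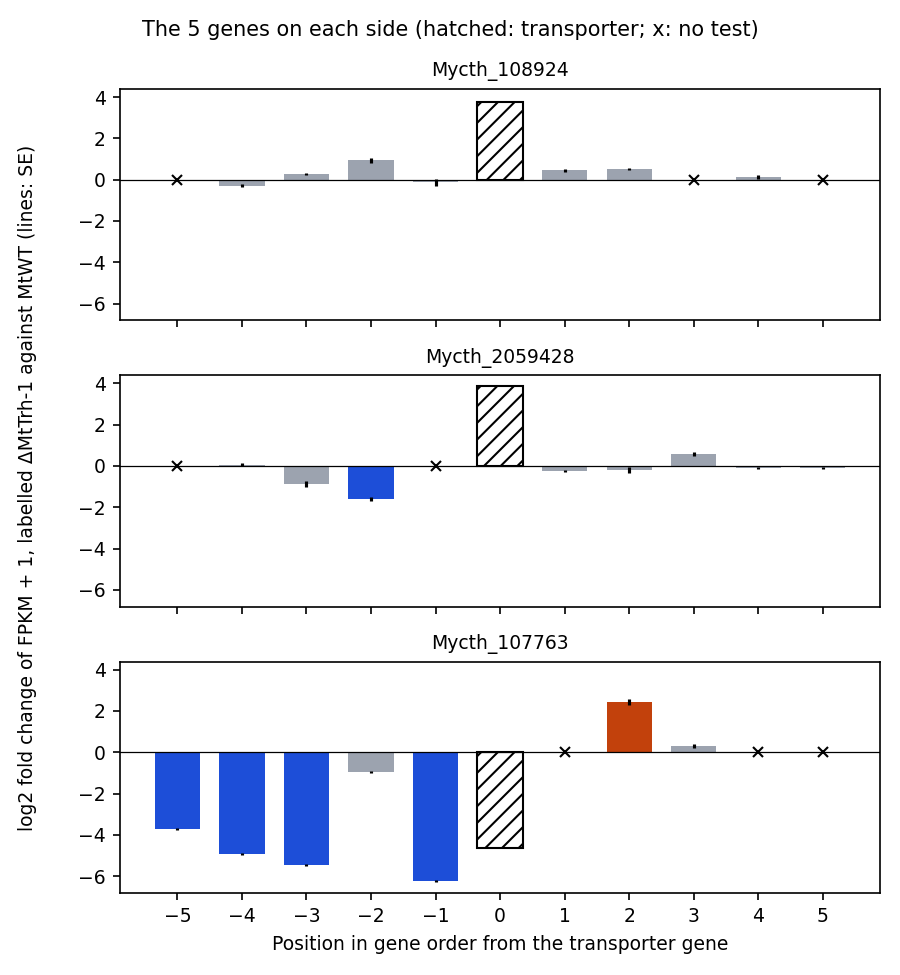
Log2 fold change of FPKM + 1 in the libraries labelled ΔMtTrh-1 against MtWT for the 5 genes on each side of each transporter gene, in gene order, with standard errors from limma as lines. Hatched bars are the transporter genes, blue bars were called lower, orange bars higher, grey bars were not called and crosses mark genes with no test. Beside *Mycth_107763*, 4 of the 5 genes on the left were called lower, down to −6.24.

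After these values were seen, the gene order was followed further on the side of the genes that fell. Of the 12 genes next to *Mycth_107763* on that side, all tested, 11 fell, with log2 fold changes from −7.94 to −1.48, and *Mycth_50920* was not called. Over all genes tested, 4.96% were called lower. The cut at 12 genes was not planned. Beyond it, *Mycth_2303693*, 13 genes away, had −0.54 and was not called, and *Mycth_2303692*, 14 genes away, had −1.31 and was called lower. Genes 15 to 19 away had no test, and the gene 20 away was not called. *Mycth_115957*, described as a 2OG-Fe(II) oxygenase and 9 genes away, had the lowest value. All 12 had a higher mean FPKM in MtWT than *Mycth_107763*, from 59.9 to 2168. Of the 10 lowest log2 fold changes over all 7525 genes, 7 belonged to this stretch and 1 was that of *Mycth_107763* itself.

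For each of the 3 genes, the 3 tested genes of the most similar pattern were taken, by the Euclidean distance between their 4 log2(FPKM + 1) values after subtracting the mean of each gene. With 4 libraries in 2 strains, this is little more than a likeness of fold change. *Mycth_108924* was closest to *Mycth_2306200*, at a distance of 0.10, which stood at 144.91 and 153.20 FPKM against 11.16 and 10.35 in MtWT, followed by *Mycth_108317*, with a phosphopantetheine attachment site, and the transferase gene *Mycth_11658*. *Mycth_2059428* was closest to *Mycth_90344* itself, at a distance of 0.09, followed by the same *Mycth_11658* and *Mycth_108317*. *Mycth_90344* and *Mycth_2059428* had log2 fold changes of 3.89 and 3.88. *Mycth_107763* was closest to *Mycth_2138881*, at a distance of 0.11, then to *Mycth_68164* and *Mycth_90182*. *Mycth_2138881* and *Mycth_68164* are 2 of the 12 genes of the stretch beside it, 6 and 11 genes away.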

How the data were processed

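RNA-seq of 2 strains with 2 libraries each was used. The authors deposited 1 FPKM value per gene and library, at 2 decimals. HISAT and Bowtie2 are named, with no version, in the submitters' processing notes, whereas the study's methods describe TopHat and HTSeq-count. How FPKM were computed, on which build and annotation, is not given in the sources used. The study's methods tested counts, which were not used here. Instead, log2(FPKM + 1) was compared across genes in limma 3.58.1 under R 4.3.3, using a trended variance prior and Benjamini-Hochberg adjustment. The fit took in every gene whose mean over the 4 libraries reached 1 FPKM, had no covariate, and the thresholds of the methods were kept (adjusted p under 0.05, log2 fold change beyond 1). Simulated data were used to test the fit. No exact permutation test was run, since 2 against 2 libraries allow no p below 0.33. Alternatives changed the pseudocount, scaling, filter, variance prior, fold threshold, replicate block and libraries used.

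The 3 genes and the gene lists were chosen with earlier results of these data known. The MFS list held genes described as sugar transporter, major facilitator or MFS in the part of the study's table at hand, and the other list those described as transporter, permease, symporter or antiporter. Genes named are the 3 genes, *Mycth_90344*, called genes of the MFS list and its 5 with the highest mean FPKM, up to 6 called genes of the other list, called neighbours among 5 on each side, and the 3 genes of nearest pattern. Further genes are named where singled out after their values were seen: *Mycth_2113977*, *Mycth_2301577*, *Mycth_2109027*, *Mycth_50920*, *Mycth_2303718*, *Mycth_115957*, *Mycth_2303693* and *Mycth_2303692*. The RefSeq gene table of assembly ASM22609v1, used for gene order alone, held 8681 of the 8716 identifiers. Planned descriptions of the proteins were not made, and no sequence is shown. Plots were drawn with matplotlib 3.10.9.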

Additional observations from a re-analysis of the deposited data

How the results depend on the processing

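The fold changes of the 3 genes kept their sign under every alternative run for them, and their size depended on the pseudocount. With 0.1 FPKM added the log2 fold change was 3.94 for *Mycth_108924*, 4.61 for *Mycth_2059428* and −6.86 for *Mycth_107763*. With 0.5 FPKM added these were 3.86, 4.23 and −5.44, and with each library scaled to a sum of 1000000 they were 3.84, 4.08 and −4.99. Scaling up has the effect of a smaller pseudocount. Leaving out 1 library moved them between 3.73 and 3.81, 3.79 and 3.97, and −4.72 and −4.55.

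In the MFS list, 8 genes were higher with a pseudocount of 0.1 FPKM, against 5, and 3 were higher with a filter at a mean of 5 FPKM, where fewer genes were tested. Dropping the fold threshold gave 12 higher and 12 lower. Among the other transporters 1 was higher under quantile normalization and 1 to 2 when leaving out a library, none was lower with the filter at 5 FPKM in limma (0 of 10 tested at an unadjusted p under 0.05), where both genes that fell were no longer tested, and 11 were higher with no fold threshold. Over all genes, dropping it gave 2570 higher and 2356 lower. Of the neighbours, 6 were called, and 8 with 0.1 or 0.5 FPKM added. These 8 include *Mycth_2301577*, which passed the filter only through MtWT. A replicate block changed no call in the lists and gave 5 higher and 5 lower MFS genes. The differences between replicates 1 and 2 had a Pearson r of −0.02 between the strains across genes. This shows no common shift, but cannot tell whether libraries of the same number were handled together. Reads per gene are unknown, which limits what can be said of values near 0, such as those of *Mycth_107763* in the libraries labelled ΔMtTrh-1.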
